A study of Ovis aries with 2 samples.

Results

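The cells described here are those caught in the cell cycle in an implanted vascular graft and in a native carotid artery of sheep: 170 barcodes, 57 from the graft and 113 from the native artery, of 7734 barcodes that could be classed and 12600 in all. A barcode, standing for 1 captured cell, was classed when it held at least 1000 unique molecular identifiers (UMIs, each 1 counted transcript molecule) and at most 20% UMIs from 13 mitochondrial genes. It was called cycling when its UMIs of TOP2A, CENPF, UBE2C and TPX2 summed to at least 3 and to at least 500 CPM, that is, per 1000000 UMIs of the barcode. A lineage was then given by the largest of 5 marker sums: endothelial (PECAM1, CDH5, VWF, CLDN5, ESAM), smooth muscle (ACTA2, MYH11, CNN1), macrophage (C1QA, C1QB, AIF1, CSF1R), T or NK (CD3D, CD3E, CD3G, CD2) and fibroblast (PI16, SFRP2, SFRP4, MFAP5). Classed barcodes that did not meet the 4-gene rule are called non-cycling here.

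The study placed cell-free grafts in sheep and profiled single cells by droplet RNA sequencing, with 1 library of each tissue. The graft library, titled H2R5-ATEV, came from a graft without cells of its own at implantation, taken out after 12 weeks. The native library came from the carotid artery per its source and description, although its title names an aorta, and the labels give the same 12 weeks. Both carry the label of sheep aged 1 to 2 years, with no strain, sex or number of animals given. Enzymes filled the clamped vessel for 20 minutes, so cells facing the lumen met them most, and red blood cells were lysed. With 1 library per tissue, every difference below describes these libraries, and no test between tissues was possible.

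A dividing cell copies its DNA in S phase and separates the copies in mitosis. CDK1 and its cyclins drive entry into mitosis, kinetochore proteins tie chromosomes to spindle microtubules, kinesins move along those microtubules, and the anaphase promoting complex, for which UBE2C supplies ubiquitin, ends mitosis. TOP2A untangles DNA, TPX2 builds the spindle, and CENPF sits at kinetochores, so the 4 genes of the rule mark late S phase to mitosis better than early S phase. In a healthy adult artery endothelial and smooth muscle cells divide rarely, whereas a graft is populated by cells that arrive and multiply.

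The graft library held 1229 barcodes with 36238351 UMIs and the native library 11371 barcodes with 43183715 UMIs. After the limits on UMIs and mitochondrial share, 924 graft barcodes with a median of 26226 UMIs and 6810 native barcodes with a median of 3548.5 UMIs were classed. The libraries shared 7 barcode sequences, and 0 of the cycling cells carried one. Doublets were not removed. Scrublet, a doublet score, put 0 of the 57 cycling graft cells among the barcodes it would remove, against 1.27% of non-cycling graft cells, and 0 of the 113 cycling native cells, against 7.48% of non-cycling native cells.

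All 4 rule genes were found together in 45 of the 57 cycling graft cells and in 36 of the 113 cycling native cells. CENPF was seen in 57 graft and 84 native cycling cells, TOP2A in 54 and 94, TPX2 in 52 and 75, and UBE2C in 46 and 63. A single rule gene carried the call in 2 graft and 13 native cycling cells. The median sum was 132 UMIs, or 2046 CPM, in cycling graft cells and 10 UMIs, or 2157 CPM, in cycling native cells. Pooled over non-cycling cells, the same genes made 37.6 CPM in graft cells and 27.1 CPM in native cells, and 55.1% of non-cycling graft and 88.4% of non-cycling native cells held 0 UMIs of them. These values chose the cells and are given as a description.

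Close to the limits, the native calls rested on few molecules. Exactly 3 rule UMIs were held by 1 cycling graft and 17 cycling native cells. The lowest cycling graft cell stood at 527 CPM (20 UMIs), and the highest non-cycling graft barcode of 3 or more UMIs at 416 CPM (23 UMIs). For the artery these cells stood at 509 CPM (6 UMIs) and 487 CPM (3 UMIs). Another 2 graft and 30 native barcodes passed 500 CPM with 2 UMIs and stayed outside.

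**Figure D1:**
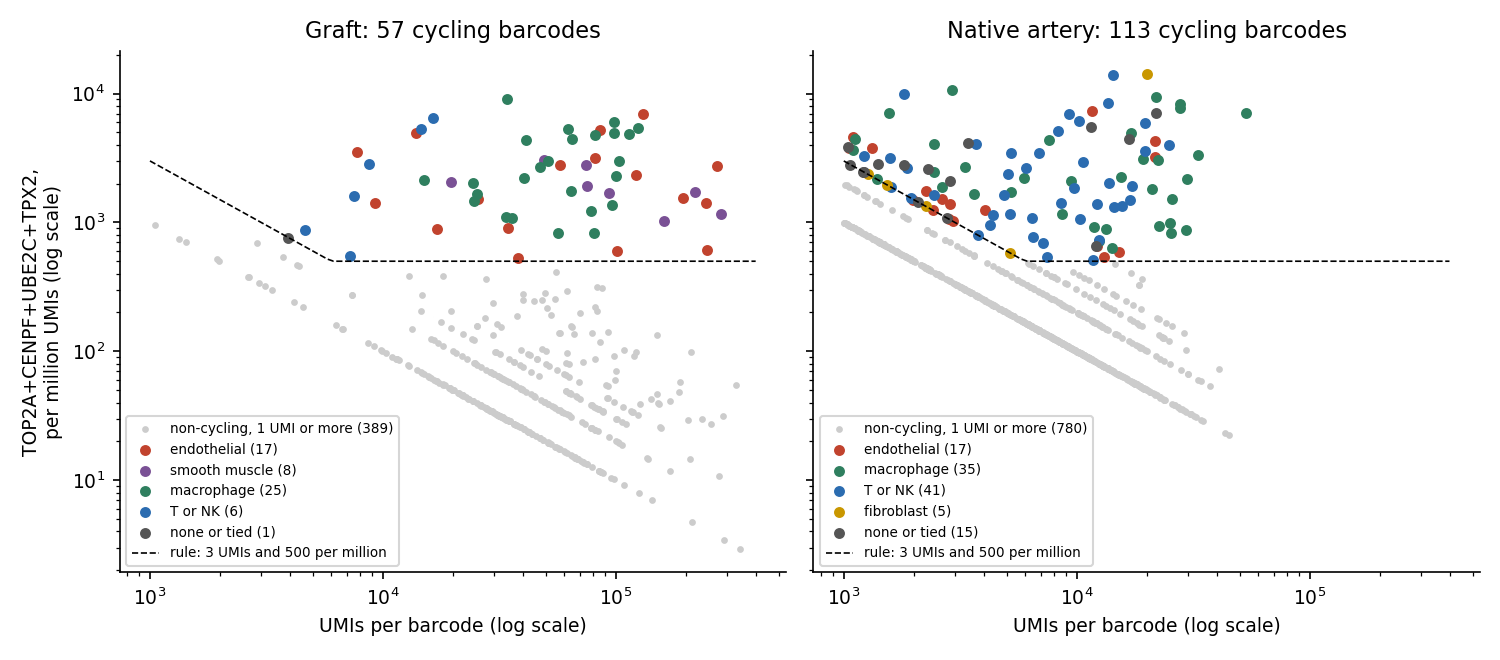
UMIs per barcode (x axis, log scale) against the summed TOP2A, CENPF, UBE2C and TPX2 level in CPM (y axis, log scale) for classed barcodes with at least 1 such UMI, graft on the left and native artery on the right, with the limits of the rule drawn as lines. Cycling graft cells lie at a median of 132 rule UMIs and cycling native cells at 10, while the median rule levels are 2046 and 2157 CPM.

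Cycling cells made 6.17% of classed graft barcodes (57 of 924, 95% interval 4.71% to 7.92%) and 1.66% of classed native barcodes (113 of 6810, 1.37% to 1.99%). Intervals on shares are exact Clopper-Pearson intervals, and all intervals here cover counting error only. The rule needs 3 molecules, so it sees more in a deep cell. After every barcode was thinned to 5000 UMIs, which left out 132 graft and 4045 native barcodes, at least 3 rule UMIs were held by 7.45% of graft cells (59 of 792) and 2.53% of native cells (70 of 2765). Thinned to 1000 UMIs, the shares were 2.27% in the graft and 0.734% in the artery. The graft share was the higher at each depth.

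Macrophages, endothelial cells and T or NK cells gave cycling cells in both vessels. In the graft, 25 were macrophages (43.9%), 17 endothelial cells (29.8%), 8 smooth muscle cells (14.0%) and 6 T or NK cells (10.5%), and 1 had no lineage. In the artery, 41 were T or NK cells (36.3%), 35 macrophages (31.0%), 17 sat in the endothelial class (15.04%) and 5 in the fibroblast class (4.42%), and 15 had no lineage because their largest sums were tied or 0. Non-cycling graft cells were 38.9% macrophage, 26.5% endothelial, 19.5% smooth muscle and 5.19% T or NK, each inside the counting interval of the cycling graft share. Non-cycling native cells were 61.3% endothelial, 11.6% macrophage and 6.76% T or NK, so cycling native cells were weighted towards leukocytes.

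Read per lineage, the endothelial class showed the widest gap among the lineages with cycling cells in both vessels. In the endothelial class 6.88% of graft cells (17 of 247, 4.06% to 10.8%) and 0.412% of native cells (17 of 4123, 0.240% to 0.659%) were cycling. Smooth muscle cells were cycling in 4.52% of the graft's (8 of 177, 1.97% to 8.71%) and in 0 of 76 of the artery's, with an exact upper limit of 4.74%. These 2 vessel-wall intervals do not overlap for endothelial cells and overlap for smooth muscle cells. Thinned to 5000 UMIs, the shares were 8.74% of graft and 0.597% of native endothelial cells, and 6.21% of graft and 2.5% of native smooth muscle cells, the last being 1 cell of 40.

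Leukocytes cycled in both vessels at shares that the counts do not separate. Among macrophages 6.91% of graft cells (25 of 362, 4.52% to 10.03%) and 4.29% of native cells (35 of 815, 3.01% to 5.92%) were cycling. Among T or NK cells the shares were 11.8% in the graft (6 of 51, 4.44% to 23.9%) and 8.3% in the artery (41 of 494, 6.02% to 11.1%). Both pairs of intervals overlap. T and NK genes outside the rule outnumbered endothelial ones in 8 endothelial, 11 no-lineage and 3 fibroblast-class native cycling cells. The same held for 81, 83 and 30 non-cycling cells of those classes. None of these cells enters the native T or NK share. Thinned to 5000 UMIs, macrophages stood at 7.76% in the graft and 5.53% in the artery, and T or NK cells at 16.7% in the graft and 9.49% in the artery. Fibroblast-class cells were cycling in 0 of 45 graft cells, with an exact upper limit of 7.87%, and in 0.542% of native cells (5 of 923).

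Some of these lineage shares depend on how the lineage was given. When each marker sum was first divided by its mean over the library, the fibroblast class held 9 cycling cells of 142 in the graft (6.34%, 2.94% to 11.7%) and 3 of 1058 in the artery, so the 0 of the graft was lost. The smooth muscle class then held 9 cycling cells of 168 in the graft (5.36%) and 4 of 160 in the artery (2.5%), so the 0 of the artery was lost too. T or NK cells were cycling in 6.31% of the graft's (7 of 111) and 7.52% of the artery's (55 of 731), which turns their order, with intervals that overlap. Endothelial cells kept their order, at 5% in the graft (11 of 220, 2.52% to 8.77%) and 0.255% in the artery (10 of 3924, 0.122% to 0.468%). The cells themselves changed, since only 8 of those 11 graft cells were among the 17 cycling endothelial cells of the main rule. Those 17 graft cells held medians of 181 endothelial-set and 37 fibroblast-set UMIs. The graft endothelial label thus also depends on the lineage rule.

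**Figure D2:**
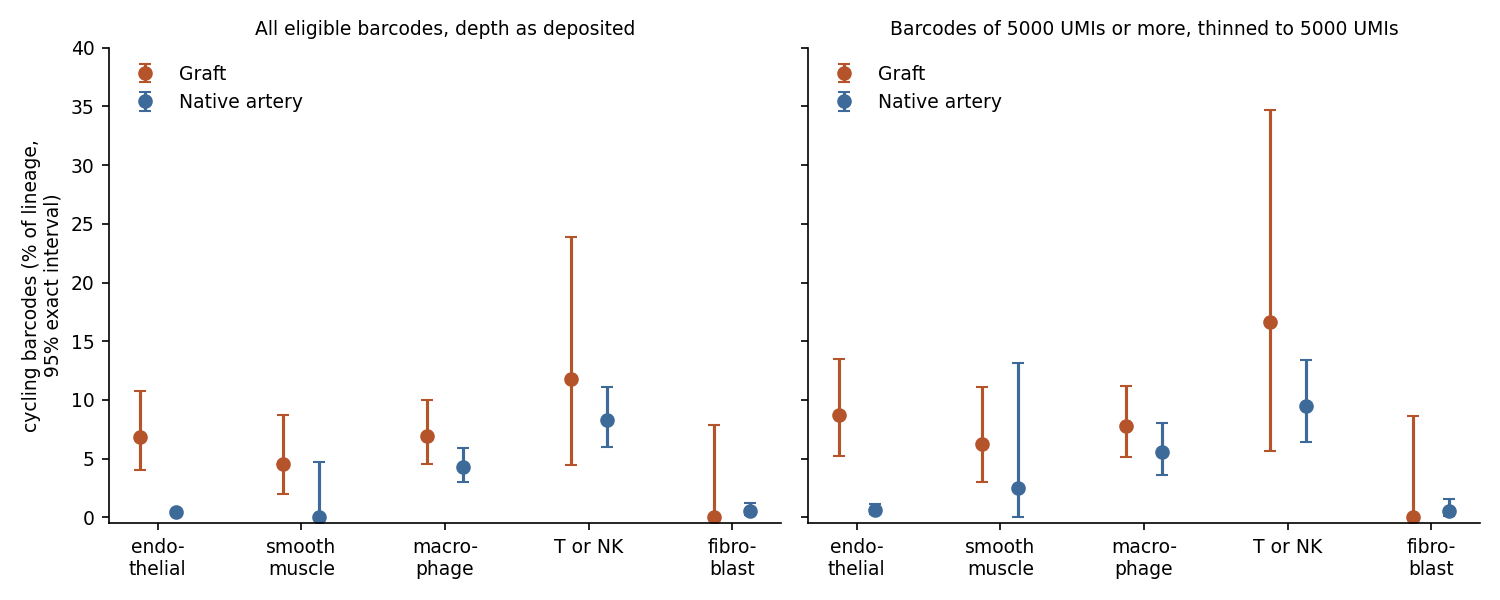
Share of classed cells that were cycling (y axis, percent) by lineage (x axis), at the deposited depth on the left and thinned to 5000 UMIs on the right, graft before native artery in each pair, as points with exact Clopper-Pearson 95% intervals. At the deposited depth endothelial cells stand at 6.88% in the graft and 0.412% in the artery with intervals apart, while the macrophage and T or NK intervals of the vessels overlap.

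The depth of cycling and non-cycling cells differed within most classes. The median was 81600 UMIs in cycling and 28944 UMIs in non-cycling graft endothelial cells, 84581 and 32027 UMIs in graft smooth muscle cells, and 62372 and 29308 UMIs in graft macrophages. Native macrophages held a median of 13386 UMIs when cycling and 7737.5 UMIs when not, and native T or NK cells 7478 and 5542 UMIs. The native endothelial class had medians of 2861 UMIs in cycling and 2964.5 UMIs in non-cycling cells, and the native fibroblast class 2244 UMIs in its 5 cycling and 8405 UMIs in its non-cycling cells, the other way round. Depth therefore moves with the call, and its part in the contrasts below was not tested apart from the thinned values.

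Further markers went against the endothelial label of 8 of the 17 native cycling cells. Their median was 3 UMIs of the 5 endothelial genes, against 9 UMIs in non-cycling cells of the class. PECAM1, an adhesion protein of endothelial junctions that some leukocytes also carry, had 505 CPM in cycling and 2330.3 CPM in non-cycling cells. Over 12 further endothelial genes outside the rule the level was 927 CPM (here per 1000000 of the class's summed UMIs) in cycling and 3293 CPM in non-cycling cells. Over 17 further T and NK genes it was 2144 CPM in cycling and 113 CPM in non-cycling cells. The part of free T or NK RNA in these levels was not tested.

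Cell by cell, T and NK genes outnumbered endothelial genes in 8 of the 17 native cycling cells of this class (47.1%), against 1.97% of its non-cycling cells. The corresponding count in the graft was 1 of 17 cycling endothelial cells (5.88%), against 3.04% of non-cycling ones. The native class is therefore called by its rule, endothelial-set cells, below. Of its 17 cycling cells, 8 kept the label under a stricter rule of at least 3 UMIs and 2 times the second sum, and 7 of these also had more further endothelial than T and NK UMIs. That left 0.197% of native endothelial cells cycling (7 of 3550, 0.0793% to 0.406%), against 7.21% of graft endothelial cells (15 of 208, 4.09% to 11.6%) treated likewise. The deepest of the native cells, with 21658 UMIs, held 64 UMIs of the endothelial set, 46 of the further endothelial genes and 0 of the further T and NK genes.

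**Figure D3:**
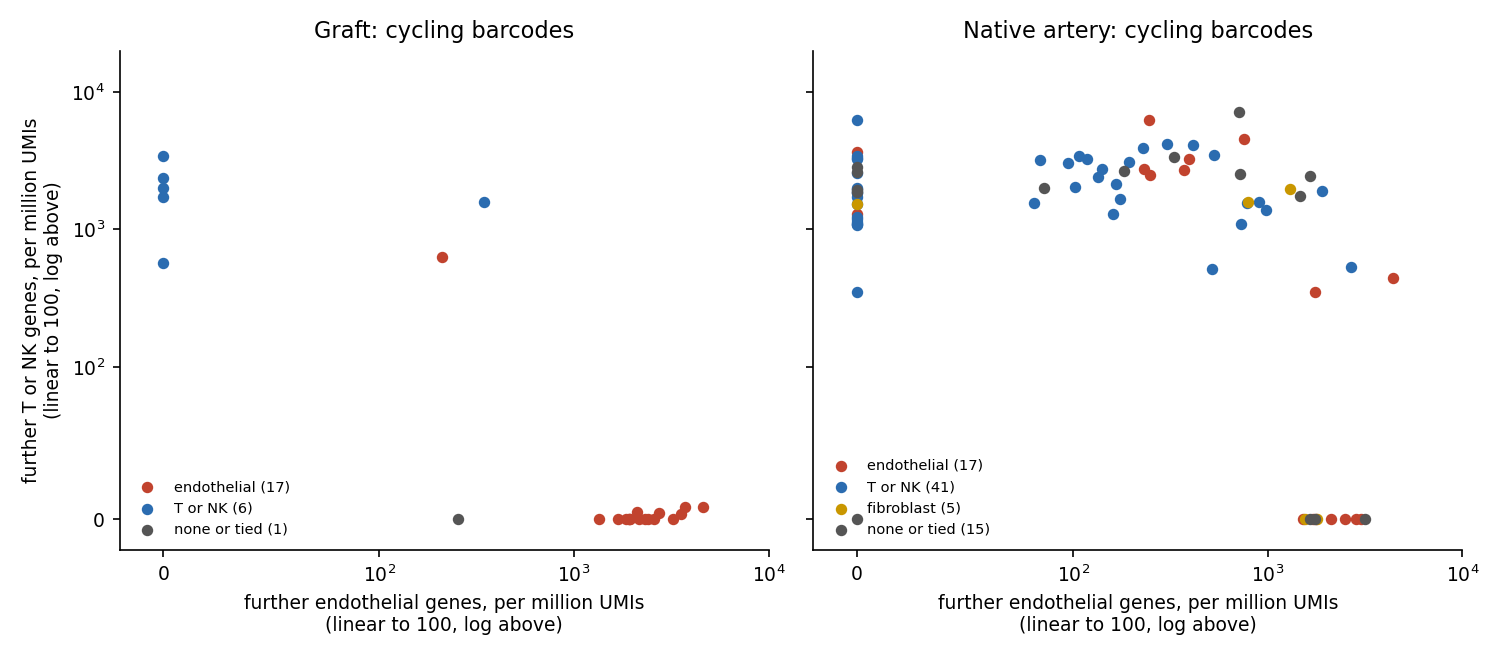
Summed level in CPM of 12 further endothelial genes (x axis) against 17 further T and NK genes (y axis) for each cycling cell of the endothelial, T or NK, fibroblast and no-lineage classes, both axes linear to 100 and on a log scale above, graft on the left and native artery on the right. The cycling endothelial cells of the graft have the larger endothelial level in 16 of 17 cases, whereas 8 of the 17 native endothelial-set cells have the larger T and NK level.

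Lymphocyte genes had high ratios in the summed UMIs of those 17 native cells. XCL1, a chemokine of cytotoxic lymphocytes, had 1035 CPM in cycling and 48.6 CPM in non-cycling cells, and LTB, a lymphotoxin chain, had 670.4 CPM in cycling and 14.3 CPM in non-cycling cells. KLRK1, the NKG2D receptor of NK and CD8 cells, had 538 CPM in cycling and 24 CPM in non-cycling cells, and NKG7, a granule protein, had 257 CPM in cycling and 15.4 CPM in non-cycling cells. Each of XCL1, LTB and KLRK1 was found in 8 of the 17 cycling cells. DOCK10, CD44, SH2D1A and SKAP1, all active in lymphocytes, were also among the 10 genes with the highest ratio there.

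Vessel-lining genes were low in the same summed UMIs, which weigh deep cells most. Of 120825 UMIs in the 17 cells, cells with more T and NK than endothelial UMIs included those of 21618, 15240, 13039, 12192 and 11628 UMIs. Among the other cells the deepest held 21658 UMIs and the next 2937. The summed levels therefore describe these few deep cells more than the typical cell. The angiopoietin receptor TEK had 49.7 CPM in cycling and 609 CPM in non-cycling cells, NOS3, which makes nitric oxide, had 124 CPM in cycling and 480.0 CPM in non-cycling cells, and FN1, fibronectin, had 588 CPM in cycling and 3715 CPM in non-cycling cells. SMAD6, LDB2, SAMD12 and MYRIP had 0 UMIs in cycling endothelial-set cells, against 255, 247, 243 and 236 CPM in non-cycling ones. Contrasts within the native endothelial set below therefore include cycling cells whose label the further markers go against. The part of free RNA or of doublets in this was not tested.

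Other classes of the native artery showed the same pattern of markers on smaller counts. T and NK genes outnumbered endothelial genes in 11 of the 15 cycling native cells without a lineage (73.3%), against 22.8% of the non-cycling cells without one. They did so in 3 of the 5 cycling fibroblast-set cells, against 3.27% of non-cycling ones, and DCN, a fibroblast proteoglycan, had 2671 CPM in cycling and 12394 CPM in non-cycling cells of that set. However, 1 of the 5 cells gave 20116 of their 30322 UMIs. It held 2 fibroblast-set UMIs, 31 of the further T and NK genes and 0 of the further endothelial genes. In native T or NK cells the further T and NK genes led in 38 of 41 cycling cells (92.7%) and in 90.3% of non-cycling cells, and in the graft in 6 of 6 cycling cells and 91.1% of non-cycling cells. The 1 graft cycling cell without a lineage held 63 UMIs of TPSB2, a mast cell tryptase, among 3929 UMIs.

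S-phase genes (DNA replication and nucleotide synthesis) and mitotic genes (entry kinases and cyclins, kinetochore, anaphase promoting complex) were summed per cell, with the 4 rule genes in neither sum. The S-phase sum had a median of 2992 CPM in cycling graft cells and 2924 CPM in cycling native cells, against 567 and 586 CPM in the non-cycling cells of the same vessels. For the mitotic sum the medians were 4318 and 4143 CPM in cycling cells, against 408 and 430 CPM in non-cycling cells.

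The mitotic sum was the larger in 39 of 57 cycling graft cells and in 61 of 113 cycling native cells, and the S-phase sum in 18 and 48, with 4 native ties. The rule genes mark late S phase to mitosis best, so the choice of cells favours a larger mitotic sum. The sums also hold different genes, so these counts are not shares of cells in each phase. By lineage the mitotic sum was the larger in 19 of 25 graft macrophages, 7 of 8 graft smooth muscle cells, 10 of 17 graft endothelial cells and 3 of 6 graft T or NK cells. In the artery it was the larger in 17 of 35 macrophages, 21 of 41 T or NK cells and 11 of 17 endothelial-set cells. Some cells outside the rule had as much S-phase RNA as a typical cycling cell: 19 non-cycling graft cells (2.19%) and 96 non-cycling native cells (1.43%) reached the median S-phase sum of their vessel's cycling cells. Native T or NK cells held 30 of those, or 6.62% of the non-cycling T or NK cells.

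**Figure D4:**
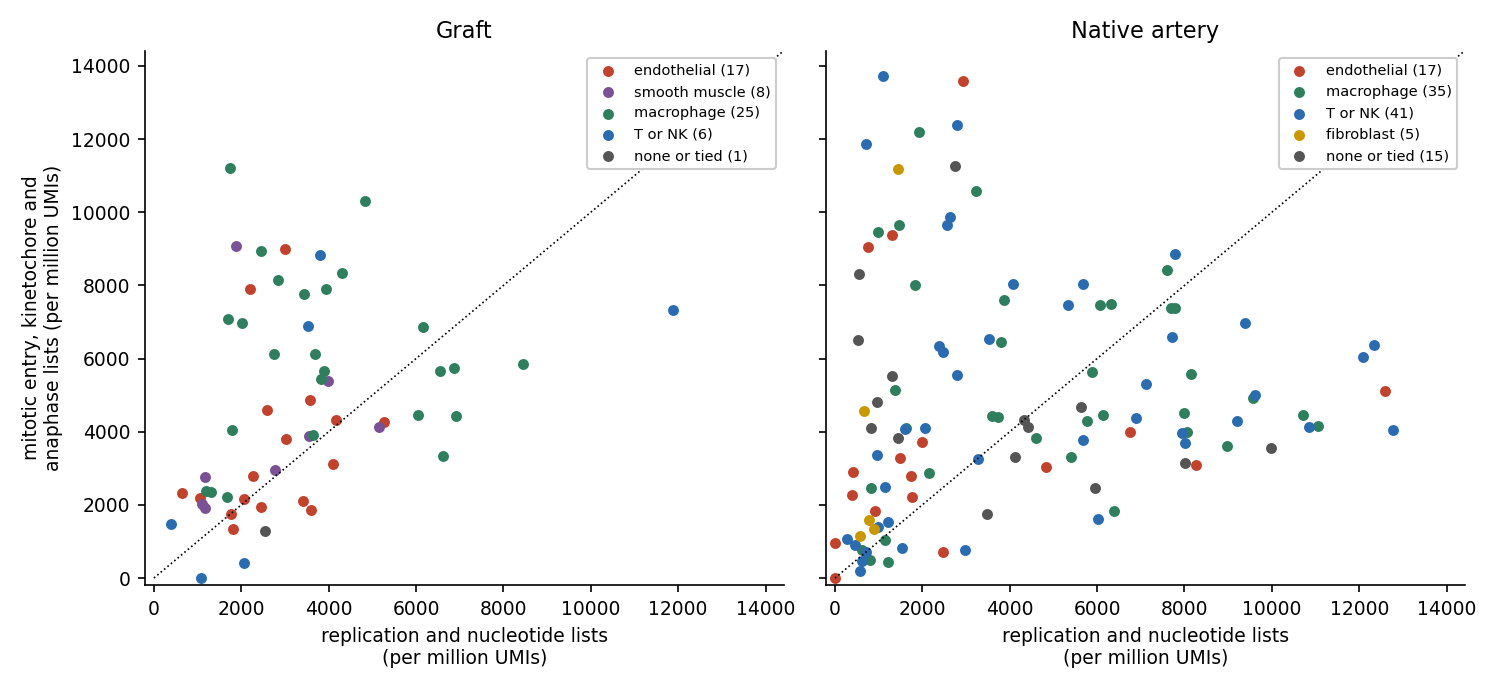
Summed S-phase level in CPM (x axis) against summed mitotic level in CPM (y axis) for each cycling cell, coloured by lineage, graft on the left and native artery on the right, with a line of equal values. In 39 of 57 graft cells and 61 of 113 native cells the mitotic sum lies above the line, and of the 5 lineages only the native fibroblast set, with 5 cells, lies wholly on 1 side. The rule that chose the cells favours a larger mitotic sum.

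Gene contrasts were made within a lineage and library where at least 10 cycling cells held at least 100000 UMIs. These were graft endothelial cells, graft macrophages, native endothelial-set cells, native macrophages and native T or NK cells. UMIs were summed over cycling and over non-cycling cells, scaled to CPM, and compared as a log2 ratio after adding 10 CPM to each, which shrinks the ratio of low genes. A gene is called higher or lower below when its ratio, so computed, reached 2-fold. Of all genes with at least 30 UMIs, 3.08% were called higher and 2.48% lower in cycling than in non-cycling graft endothelial cells, and 3.69% higher and 3.74% lower in graft macrophages. The shares were 14.1% higher and 13.6% lower in native endothelial-set cells, 4.62% higher and 3.3% lower in native macrophages, and 5.59% higher and 2.57% lower in native T or NK cells. Since the rule picked cells by genes of the same cycle, these contrasts describe the chosen cells, and counts of list members are given without a test.

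Replication genes were high across the board. Of 37 measured DNA replication genes, 31 were called higher in cycling graft endothelial cells, 31 in graft macrophages, 27 in native endothelial-set cells and 35 in native macrophages, and 32 of 36 in native T or NK cells, with 0 called lower in any of the 5. Median log2 ratios were 1.45, 1.50, 1.66, 1.74 and 1.49 in that order of classes. PCNA, the sliding clamp of the polymerases, had 156 CPM in cycling and 21.2 CPM in non-cycling graft endothelial cells, 216 CPM in cycling and 28.2 CPM in non-cycling graft macrophages, 426 CPM in cycling and 38.6 CPM in non-cycling native macrophages and 402 CPM in cycling and 48.2 CPM in non-cycling native T or NK cells. UHRF1, which carries DNA methylation through replication, had 137 CPM in cycling and 4.91 CPM in non-cycling graft macrophages and 209 CPM in cycling and 5.13 CPM in non-cycling native T or NK cells. GMNN, which blocks a further round of replication, had 127 CPM in cycling and 31 CPM in non-cycling native macrophages.

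Nucleotide supply was higher in part. Of 14 or 15 measured members, 7 were called higher in each of the 5 classes except the native endothelial set, where 6 were, and 0 were called lower. DUT, which keeps uracil out of DNA, had 475 CPM in cycling and 76.4 CPM in non-cycling graft endothelial cells, 636 CPM in cycling and 79.9 CPM in non-cycling graft macrophages and 1008 CPM in cycling and 86.1 CPM in non-cycling native T or NK cells. TYMS, thymidylate synthase, and RRM1, a ribonucleotide reductase subunit, were higher in each class, with log2 ratios for TYMS of 2.21 in graft endothelial cells and 2.88 in native macrophages. The purine enzyme ATIC was not, with 33.8 CPM in cycling and 41.6 CPM in non-cycling graft macrophages.

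Chromatin packing genes followed. The list had 15 of 20 members called higher in graft endothelial cells, 18 of 20 in graft macrophages, 15 of 20 in native endothelial-set cells, 19 of 20 in native macrophages and 19 of 19 in native T or NK cells. H2AZ1, a variant histone, had 1060.2 CPM in cycling and 158 CPM in non-cycling graft macrophages and 1134 CPM in cycling and 156 CPM in non-cycling native macrophages. SMC2 and NCAPG, condensin subunits that compact mitotic chromosomes, had log2 ratios of 3.75 and 4.06 in graft macrophages.

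Mitotic genes showed the widest contrasts. All 25 measured kinetochore genes were called higher in cycling graft endothelial cells, graft macrophages and native macrophages, 23 of 25 in native T or NK cells and 20 of 22 in native endothelial-set cells. Their median log2 ratios were 2.18 in graft endothelial cells, 2.62 in graft macrophages, 2.72 in native endothelial-set cells, 2.90 in native macrophages and 2.47 in native T or NK cells. CENPE, a kinesin that carries chromosomes to the spindle equator, led the named genes in both graft classes. Per cell it ranged over 40.5, 447 and 1865 CPM (lowest, median, highest) in the 25 cycling graft macrophages, against a median of 0 in non-cycling ones.

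Summed, CENPE had 662 CPM in cycling and 4.27 CPM in non-cycling graft macrophages, a ratio of 155 (118 to 208), so every cycling macrophage of the graft held it and the typical non-cycling one did not. Other summed values of CENPE were 357 CPM in cycling and 4.07 CPM in non-cycling graft endothelial cells, 394 CPM in cycling and 4.15 CPM in non-cycling native macrophages and 308 CPM in cycling and 11.8 CPM in non-cycling native T or NK cells. NDC80, of the complex that grips microtubules, had 162 CPM in cycling and 2.31 CPM in non-cycling graft endothelial cells and 201 CPM in cycling and 4.34 CPM in non-cycling native T or NK cells. BUB1B, a checkpoint kinase, had log2 ratios of 3.45 in graft macrophages and 3.65 in native T or NK cells.

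Entry into mitosis was marked by CDK1, its kinase, with 128 CPM in cycling and 3.08 CPM in non-cycling graft endothelial cells, 191 CPM in cycling and 1.9 CPM in non-cycling graft macrophages, 201 CPM in cycling and 1.52 CPM in non-cycling native macrophages and 171 CPM in cycling and 4.34 CPM in non-cycling native T or NK cells. CCNA2, cyclin A, had log2 ratios of 3.20, 3.93, 3.71 and 3.60 in the same 4 classes. In the entry list, 14 of 18 members were called higher in graft endothelial cells, 16 of 19 in graft macrophages, 14 of 15 in native endothelial-set cells, 17 of 18 in native macrophages and 14 of 16 in native T or NK cells. WEE1, which restrains CDK1, passed 2-fold only in the native leukocytes, at log2 ratios of 1.17 in macrophages and 1.31 in T or NK cells, with 0.54, 0.91 and 0.79 in the other classes.

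Of 29 measured spindle genes, 29 were called higher in each of 4 classes and 27 in native endothelial-set cells. STMN1, which destabilises microtubules, had 353 CPM in cycling and 30.2 CPM in non-cycling graft endothelial cells, 559.6 CPM in cycling and 30.9 CPM in non-cycling graft macrophages, 1291 CPM in cycling and 33.3 CPM in non-cycling native macrophages and 1372 CPM in cycling and 81.7 CPM in non-cycling native T or NK cells. Its ratio to non-cycling cells was 11.7 (10.1 to 13.6) in graft endothelial cells and 38.7 (33.4 to 45.1) in native macrophages. ASPM, a spindle pole protein, had 235 CPM in cycling and 0.396 CPM in non-cycling graft macrophages. NUSAP1 and PRC1, which bundle spindle microtubules, were among the 10 highest ratios of both graft classes.

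Of the anaphase promoting complex and mitotic exit list, 8 of 12 members were called higher in graft endothelial cells, graft macrophages, native macrophages and native T or NK cells, and 8 of 11 in native endothelial-set cells. CDC20, an activator of the complex, had 118 CPM in cycling and 1.82 CPM in non-cycling graft macrophages. CDC16, a core subunit, had 13.8 CPM in cycling and 10.2 CPM in non-cycling graft macrophages and passed 2-fold in native endothelial-set cells alone. CCNG1, a cyclin of the G type, was called lower in graft macrophages, with 20.1 CPM in cycling and 62.9 CPM in non-cycling cells. Replication-linked repair genes were called higher in 15 to 17 of 20 members of each class, BRCA1 among them at log2 ratios between 2.19 in graft endothelial cells and 3.11 in native macrophages.

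**Figure D5:**
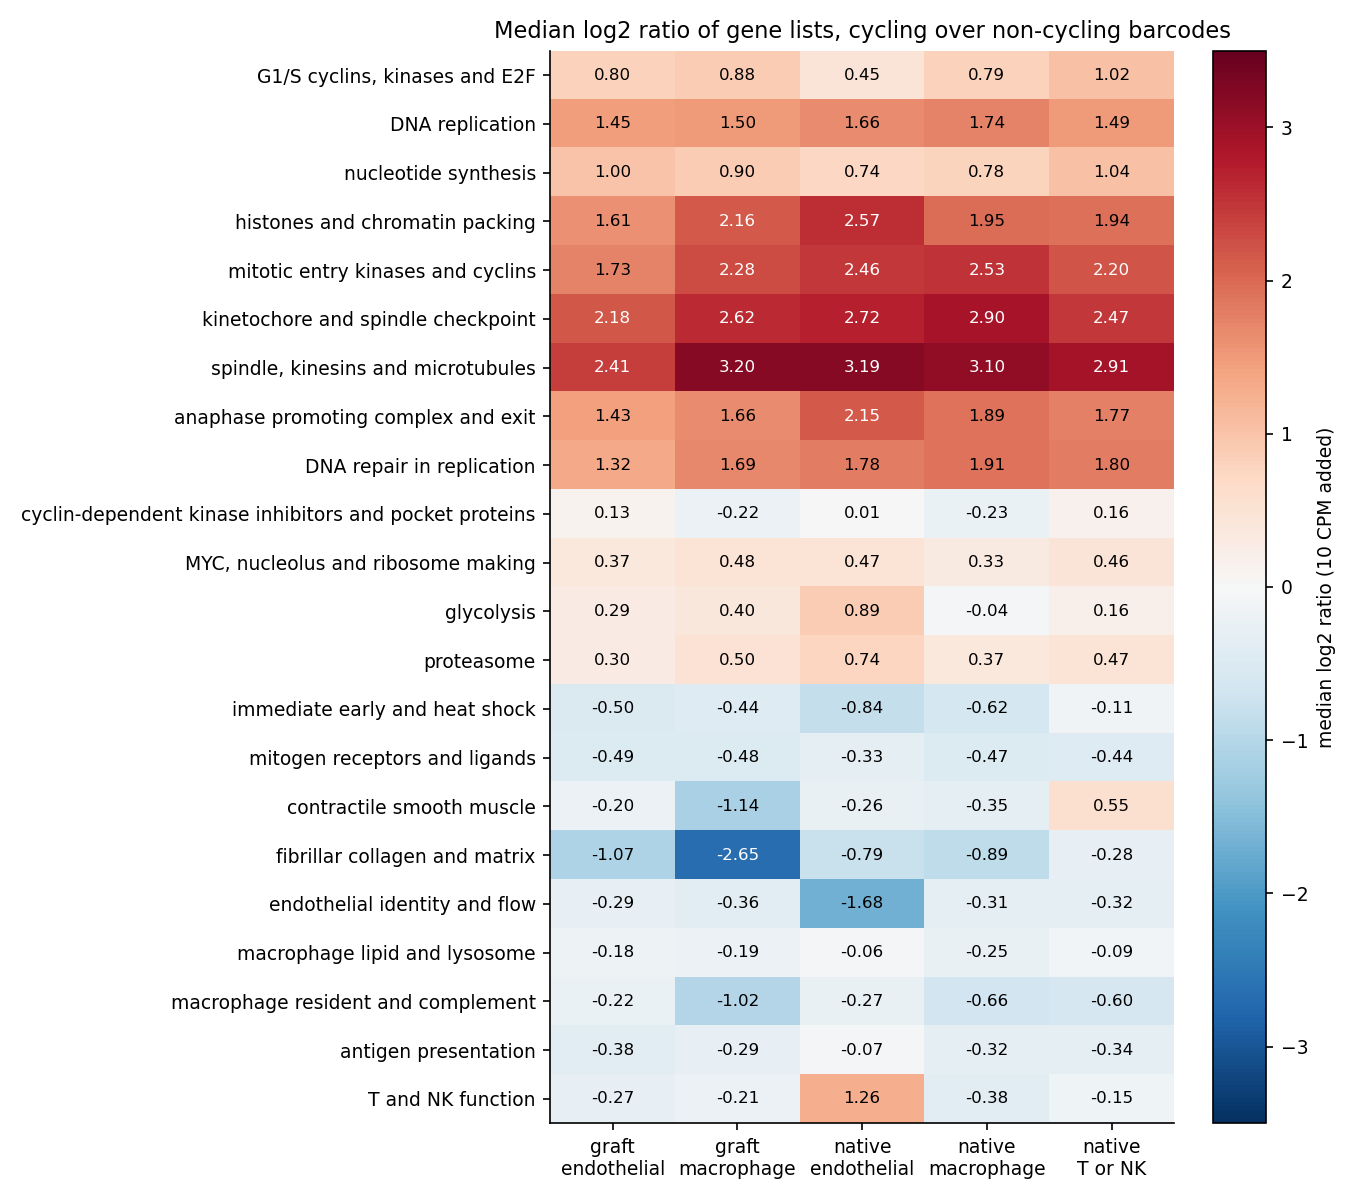
Median log2 ratio of cycling over non-cycling CPM (10 CPM added) for each gene list (rows) in the 5 classes compared (columns, graft before native), as a number and a colour from blue (lower in cycling) to red (higher in cycling). Spindle and kinetochore lists lie between 2.18 and 3.20, replication between 1.45 and 1.74, and the immediate early, mitogen and collagen lists below 0 in each class.

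Genes of the G1/S step were mixed. At least 2-fold higher were 4 of 15 members in graft endothelial cells, 7 of 15 in graft macrophages, 4 of 13 in native endothelial-set cells, 5 of 14 in native macrophages and 7 of 14 in native T or NK cells. CCNE2, cyclin E2, and E2F7, a repressor of E2F targets, passed in each class, with CCNE2 at 48.2 CPM in cycling and 5.38 CPM in non-cycling graft macrophages. CCND2, cyclin D2, which acts earlier in G1, was called lower in each class. It had 23.2 CPM in cycling and 79.5 CPM in non-cycling graft endothelial cells, 11.3 CPM in cycling and 77.8 CPM in non-cycling graft macrophages, 82.8 CPM in cycling and 345 CPM in non-cycling native endothelial-set cells, 20.8 CPM in cycling and 85.5 CPM in non-cycling native macrophages and 33.1 CPM in cycling and 147 CPM in non-cycling native T or NK cells. CCND1, cyclin D1, had 414 CPM in cycling and 266 CPM in non-cycling graft endothelial cells and 15 CPM in cycling and 55.1 CPM in non-cycling graft macrophages.

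Cell cycle inhibitors did not move as a list, with medians of 0.13 in graft endothelial cells, -0.22 in graft macrophages, 0.01 in native endothelial-set cells, -0.23 in native macrophages and 0.16 in native T or NK cells. CDKN2C and CDKN2D, INK4 inhibitors of CDK4 and CDK6, and RBL1, the pocket protein p107, were called higher in each class. CDKN2D had 53.9 CPM in cycling and 3.01 CPM in non-cycling graft macrophages and 218 CPM in cycling and 44.2 CPM in non-cycling native T or NK cells. CDKN1C, the inhibitor p57, was called lower in 4 classes, at 49.7 CPM in cycling and 165 CPM in non-cycling native endothelial-set cells, and had a log2 ratio of -0.64 in native T or NK cells. In that endothelial set, T and NK genes outnumbered endothelial genes in 8 of 17 cycling cells, so its values also compare unlike cells. CDKN1A, the inhibitor p21, had 104 CPM in cycling and 291 CPM in non-cycling graft macrophages and 501 CPM in cycling and 458 CPM in non-cycling graft endothelial cells. BTG2, an antiproliferative gene, had 129 CPM in cycling and 399 CPM in non-cycling native macrophages and 97.1 CPM in cycling and 212 CPM in non-cycling graft macrophages.

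Most growth genes lay within 2-fold. Of 15 measured genes of MYC, the nucleolus and ribosome making, 2 were called higher in graft endothelial cells, 3 in native endothelial-set cells and 1 in each of the other classes, with medians from 0.33 in native macrophages to 0.48 in graft macrophages. Of all genes, 14.1% were called higher in native endothelial-set cells and 3.08% to 5.59% in the other classes. RAN, a GTPase of nuclear transport and spindle assembly, passed in each class, with 569 CPM in cycling and 221 CPM in non-cycling graft macrophages. MYC itself had 52.9 CPM in cycling and 56.6 CPM in non-cycling graft endothelial cells and 50.8 CPM in cycling and 25.4 CPM in non-cycling graft macrophages. Proteasome genes had medians of 0.30 in graft endothelial cells, 0.50 in graft macrophages and 0.47 in native T or NK cells with 0 members past 2-fold there. Glycolysis genes had 0 of 15 past 2-fold in both graft classes, at medians of 0.29 in endothelial cells and 0.40 in macrophages, and 6 of 15 in native endothelial-set cells, at 0.89. Of all genes in that set, 14.1% were called higher and 13.6% lower.

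Immediate early genes, which mitogens and tissue digestion both induce, mostly lay within 2-fold. Of 15 measured members, 0 were called lower in graft endothelial cells and native T or NK cells, 1 in graft macrophages, 2 in native macrophages and 6 in native endothelial-set cells, where 1 was called higher. Of all genes, 13.6% were called lower and 14.1% higher in native endothelial-set cells, and 2.48% to 3.74% lower in the other classes. Medians were -0.50 in graft endothelial cells, -0.44 in graft macrophages, -0.84 in native endothelial-set cells, -0.62 in native macrophages and -0.11 in native T or NK cells. FOS had 3273 CPM in cycling and 5040.2 CPM in non-cycling native macrophages, and JUNB had 552 CPM in cycling and 917 CPM in non-cycling graft endothelial cells. HSP90AA1, a chaperone on the same list, was on the other side in each class, with 3531 CPM in cycling and 1788 CPM in non-cycling graft macrophages. Mitogen receptors and ligands had medians between -0.49 in graft endothelial cells and -0.33 in native endothelial-set cells. HBEGF, a ligand of the EGF receptor, had 52.9 CPM in cycling and 121 CPM in non-cycling graft endothelial cells, and TGFBR1 had 628 CPM in cycling and 374 CPM in non-cycling graft endothelial cells.

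Beyond the cycle, summed levels of matrix and resident macrophage genes were lower in cycling than in non-cycling graft macrophages. Of 17 collagen and matrix genes, 13 were called lower, against 3.74% of all genes, with a median log2 ratio of -2.65. COL1A1, fibrillar collagen, had 35.1 CPM in cycling and 931 CPM in non-cycling cells, POSTN, periostin, had 12.5 CPM in cycling and 460.0 CPM in non-cycling cells, and MGP, matrix Gla protein, had 32 CPM in cycling and 801 CPM in non-cycling cells. The non-cycling levels came from few cells: the 10% of non-cycling macrophages highest in each gene held 95.9% of COL1A1, 96.9% of POSTN and 95.3% of MGP UMIs.

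Per cell, COL1A1 ranged over 0, 29.9 and 237 CPM (lowest, median, highest) in cycling macrophages, against a median of 52.3 CPM in non-cycling ones. The medians of the 2 groups are thus far closer than the sums, and the highest non-cycling macrophage stood at 16239 CPM. With each cell weighted equally, the log2 ratio of COL1A1 was -3.20, and under the stricter lineage rule -3.07, against -4.38 as summed. Contractile genes, which macrophages are not known for, were called lower in 9 of 15 members, against 3.74% of all genes. TAGLN had 7.52 CPM in cycling and 178 CPM in non-cycling cells. The part of doublets or of free matrix RNA in the non-cycling levels was not tested.

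SLC40A1, ferroportin, which exports iron, had 6.89 CPM in cycling and 256 CPM in non-cycling graft macrophages. It was found in 6 of 25 cycling and 55.2% of non-cycling macrophages, and its per-cell median was 0 CPM in cycling and 32.8 CPM in non-cycling ones. Here the groups differed in the typical cell as well as in the sum.

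Of 13 resident and complement genes, 7 were called lower and 0 higher in cycling graft macrophages, against 3.74% and 3.69% of all genes. The list's median was -1.02. MRC1, the mannose receptor, had 159.8 CPM in cycling and 536 CPM in non-cycling cells, with per-cell medians of 146 and 291 CPM. CD163, the haemoglobin scavenger receptor, had 112 CPM in cycling and 296 CPM in non-cycling cells, FOLR2, a folate receptor, had 171 CPM in cycling and 375 CPM in non-cycling cells, and MAF, a transcription factor of resident macrophages, had 48.2 CPM in cycling and 209 CPM in non-cycling cells. C1QA, a complement chain and a rule gene of the lineage, had 2322 CPM in cycling and 4718 CPM in non-cycling cells, with per-cell medians of 1054 and 4916 CPM. Since C1QA helped to place the cells in the class, its level is a description of that choice too.

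Lipid and lysosome genes split in the same cells, with 3 of 18 members called higher and 1 lower around a median of -0.19. Of all genes there, 3.69% were called higher and 3.74% lower. FABP5, a fatty acid carrier, had 2852 CPM in cycling and 1306 CPM in non-cycling cells and ranged over 582, 1306 and 8495 CPM in cycling macrophages, against a median of 492 CPM in non-cycling ones. Each cycling cell thus lay above that median. FABP5 was also called higher in the 3 native classes, with 405 CPM in cycling and 145 CPM in non-cycling native macrophages and 331 CPM in cycling and 106 CPM in non-cycling native T or NK cells, and had 186 CPM in cycling and 128 CPM in non-cycling graft endothelial cells.

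PLIN2, which coats lipid droplets, had 208 CPM in cycling and 72.4 CPM in non-cycling graft macrophages, and FABP4 had 541 CPM in cycling and 117 CPM in non-cycling cells, though 4 of 25 cycling cells held it and 1 gave 55.7% of its UMIs. SPP1, osteopontin, had 430.5 CPM in cycling and 3812 CPM in non-cycling cells, but its per-cell medians were 66.8 CPM in cycling and 40.3 CPM in non-cycling cells and 97.4% of the non-cycling UMIs lay in the highest 10% of cells. CTSK, an osteoclast collagenase, had 1065 CPM in cycling and 2566 CPM in non-cycling cells with per-cell medians of 483 and 468 CPM. The osteoclast list, CTSK included, had 3 of 3 measured genes called lower in sum. TREM2, a lipid receptor, had 317 CPM in cycling and 236 CPM in non-cycling cells.

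Neutrophil-list genes were higher in sum in the cycling graft macrophages. S100A12, a calgranulin, had 912 CPM in cycling and 403 CPM in non-cycling cells and was found in 10 of 25 cycling cells, and S100A8 had 511 CPM in cycling and 242 CPM in non-cycling cells. The list held 3 measured genes, of which 2 passed 2-fold, against 3.69% of all genes called higher. At least 2 UMIs of the list were held by 9 of 25 cycling cells (36%) and by 22.8% of non-cycling cells. The highest cycling cell held 679 and the highest non-cycling cell 781. The higher sum thus came from a minority of the cycling cells.

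Of 17 measured endothelial genes, EMCN alone was called higher and 4 were called lower in cycling graft endothelial cells, where 3.08% of all genes were called higher and 2.48% lower. The list's median was -0.29. NOS3 had 849 CPM in cycling and 722 CPM in non-cycling cells and PECAM1 had 2170.0 CPM in cycling and 2647 CPM in non-cycling cells. EMCN, endomucin, a sialomucin of capillary and venous endothelium, had 752 CPM in cycling and 273 CPM in non-cycling cells and ranged over 0, 386 and 2321 CPM in the 17 cycling cells, against a median of 101 CPM in non-cycling ones. 1 cell gave 45.1% of the cycling EMCN UMIs.

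The 4 lower genes were VWF, CLDN5, GJA4 and FLT1. VWF, the clotting glycoprotein, had 195 CPM in cycling and 692 CPM in non-cycling cells, with per-cell medians of 144 and 395 CPM. CLDN5, a tight junction protein, had 23.2 CPM in cycling and 189.6 CPM in non-cycling cells and was found in 3 of 17 cycling cells. GJA4, an arterial gap junction protein, had 34.5 CPM in cycling and 144 CPM in non-cycling cells, and FLT1, a VEGF receptor, had 39.9 CPM in cycling and 93.1 CPM in non-cycling cells. VWF and CLDN5 are genes of the lineage rule, so their values here are those of cells placed partly by them.

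Of 17 matrix genes, 9 were called lower here too, against 2.48% of all genes, at a list median of -1.07. COL1A2 had 312 CPM in cycling and 845 CPM in non-cycling cells, BGN, biglycan, had 177 CPM in cycling and 573 CPM in non-cycling cells and MGP had 271 CPM in cycling and 1196 CPM in non-cycling cells. With each cell weighted equally the log2 ratio of MGP was -0.93, under 2-fold, against -2.10 as summed. Per cell, COL1A1 had a median of 87.6 CPM in cycling and 68.2 CPM in non-cycling cells, while its sums were 97.6 and 360.4 CPM. So the typical cell did not follow the sum for that gene. CD74, the invariant chain of antigen presentation, had 17.8 CPM in cycling and 108 CPM in non-cycling cells.

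Other named genes of low ratio were ROBO1, a guidance receptor, with 14.9 CPM in cycling and 107 CPM in non-cycling cells, TMTC2, with 28.6 CPM in cycling and 168 CPM in non-cycling cells, and ITIH4, with 126 CPM in cycling and 559.8 CPM in non-cycling cells. NPPC, C-type natriuretic peptide, had 86.3 CPM in cycling and 441 CPM in non-cycling cells, with 97.2% of its cycling UMIs in 1 cell. RDH10, a retinol dehydrogenase, had 25 CPM in cycling and 121 CPM in non-cycling cells. Among the high ratios, DIAPH3, an actin-nucleating formin, had 1357 CPM in cycling and 104 CPM in non-cycling cells and ranged over 129, 624 and 3632 CPM in cycling cells.

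The 8 cycling smooth muscle cells of the graft were too few for a contrast and are described by values. They held between 19555 and 283215 UMIs. ACTA2, smooth muscle actin, had 5015 CPM in cycling and 4769 CPM in non-cycling cells, CNN1, calponin, had 394 CPM in cycling and 338 CPM in non-cycling cells, and TAGLN had 4376 CPM in cycling and 4124 CPM in non-cycling cells. MYH11, smooth muscle myosin, had 341 CPM in cycling and 796 CPM in non-cycling cells, and RGS5, a mural cell gene, had 22.6 CPM in cycling and 578 CPM in non-cycling cells. ACTA2, CNN1 and MYH11 are genes of the lineage rule, so their values describe that choice too. COL1A1 had like summed levels, at 11541 CPM in cycling and 11996 CPM in non-cycling cells. However, 1 cycling cell gave 5023 of its UMIs, and the others gave 225 to 1756 each.

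STMN1 had 248 CPM in cycling and 21.4 CPM in non-cycling graft smooth muscle cells and CENPE had 269 CPM in cycling and 4.96 CPM in non-cycling cells. In 2 of the 8 cells the macrophage set held 749 and 470 UMIs and the osteoclast list 451 and 345 UMIs, and in the other 6 the macrophage set held 0 to 7 UMIs. Those 2 cells gave 283215 and 161145 of the 974590 UMIs of all 8, so they weigh heavily in the summed levels of these cells. Scrublet removed none of the 8, and the part of doublets in those 2 cells was not tested otherwise. In T or NK cells of the graft, 6 of them cycling, CD3E, a T cell receptor chain and lineage-rule gene, had 2477 CPM in cycling and 1926 CPM in non-cycling cells. STMN1 had 1340.4 CPM in cycling and 35.5 CPM in non-cycling cells there.

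In native macrophages C1QA, C1QB and CD163 lay within 2-fold between cycling and non-cycling cells. C1QA and C1QB helped to place the cells in the class, so their levels describe that choice too. C1QA had 5589.9 CPM in cycling and 4765 CPM in non-cycling cells, C1QB had 1893 CPM in cycling and 1636 CPM in non-cycling cells and CD163 had 186 CPM in cycling and 164 CPM in non-cycling cells. Of the 13 resident and complement genes, LYVE1, F13A1 and CD14 were called lower, against 3.3% of all genes, and the list's median was -0.66. LYVE1, a hyaluronan receptor of perivascular macrophages, had 1.89 CPM in cycling and 59.5 CPM in non-cycling cells. A lymphatic marker list of 4 genes that includes LYVE1 reached 2 UMIs in 5.71% of cycling and 6.15% of non-cycling cells. Few cells of either group thus held 2 or more LYVE1 UMIs. F13A1, a transglutaminase, had 43.5 CPM in cycling and 194 CPM in non-cycling cells, and CD14, the endotoxin co-receptor, had 56.8 CPM in cycling and 202 CPM in non-cycling cells.

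IL10, an anti-inflammatory cytokine, had 13.3 CPM in cycling and 113 CPM in non-cycling cells and UMIs in 4 of 35 cycling cells. PTGS2, the inducible prostaglandin synthase, had 36 CPM in cycling and 163 CPM in non-cycling cells. COL1A2 had 64.4 CPM in cycling and 290.1 CPM in non-cycling cells and DCN had 71.9 CPM in cycling and 303 CPM in non-cycling cells, and with each cell weighted equally their log2 ratios were -0.98 and -0.77, against -2.01 and -1.93 as summed. MRC1 had 246 CPM in cycling and 444 CPM in non-cycling cells. CD74 had 9703 CPM in cycling and 11029 CPM in non-cycling cells, and the other antigen presentation genes lay within 2-fold.

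Effector genes of native T or NK cells mostly lay within 2-fold between cycling and non-cycling cells. CD3E, a gene of the lineage rule whose level describes that choice too, had 1768 CPM in cycling and 1784 CPM in non-cycling cells. CD8A, the cytotoxic co-receptor, had 146 CPM in cycling and 134 CPM in non-cycling cells and NKG7 had 331 CPM in cycling and 333 CPM in non-cycling cells. IFNG, interferon gamma, had 300.2 CPM in cycling and 256 CPM in non-cycling cells, XCL1 had 592 CPM in cycling and 628 CPM in non-cycling cells and PRF1, perforin, had 102 CPM in cycling and 83.7 CPM in non-cycling cells. Of 20 measured T and NK genes 1 was called higher and 1 lower, near the shares of all genes, 5.59% higher and 2.57% lower. The higher one was the granzyme GZMA, at 49.6 CPM in cycling and 10.7 CPM in non-cycling cells and in 5 of 41 cycling cells. The list's median was -0.15.

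That lower gene was IL7R, the receptor for the survival cytokine IL-7, with 113 CPM in cycling and 533 CPM in non-cycling cells. It was found in 13 of 41 cycling and 53.4% of non-cycling T or NK cells. BACH2, a transcription factor that restrains effector differentiation, had 196 CPM in cycling and 772 CPM in non-cycling cells, and CCND2, given above, was the next. CEBPB had 77.1 CPM in cycling and 204 CPM in non-cycling cells, and EEF1B2, a translation factor, had 212 CPM in cycling and 504 CPM in non-cycling cells. SAMHD1, which breaks down nucleotides, had 157 CPM in cycling and 383 CPM in non-cycling cells, and with each cell weighted equally its log2 ratio was -0.92, under 2-fold, against -1.24 as summed. GZMB, another granzyme, had 138 CPM in cycling and 251 CPM in non-cycling cells, within 2-fold.

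Across classes, some genes high in cycling cells belonged to none of the cycle lists and were picked out after their values were seen. PCLAF, a PCNA partner, H2AC12 and H1-5, replication-linked histones, and CENPP, a kinetochore gene, were among the 15 highest ratios outside the lists in graft endothelial cells and graft macrophages and in native macrophages and native T or NK cells. PCLAF had 145 CPM in cycling and 2.75 CPM in non-cycling graft endothelial cells and 581 CPM in cycling and 6.32 CPM in non-cycling native T or NK cells. H1-5 had 417 CPM in cycling and 25.7 CPM in non-cycling graft macrophages. EZH2, which methylates histone H3, had 115 CPM in cycling and 28.1 CPM in non-cycling graft endothelial cells, and THBS1, thrombospondin, had 979 CPM in cycling and 224 CPM in non-cycling cells there with 65% of the cycling UMIs in 1 cell.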

How the data were processed

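As deposited, the files hold raw counts of UMIs per gene and barcode, 1 filtered matrix per library, and, per the file headers, Cell Ranger 7.2.0 wrote them. Seurat 5.0.0, R 4.3.3 and bcl2fastq 2.20.0.422 appear in the submitters' processing notes with no stated role. A genome build is not given in the sources used here. The matrices list 21890 genes, 6435 of them without a symbol, and symbols such as MKI67 and CCNB1 were not among those used here.

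Barcodes were classed in Python 3.11.15 with numpy 2.4.6, scipy 1.17.1, pandas 2.3.3 and scanpy 1.11.5. A tie for the largest marker sum, or all sums at 0, gave no lineage. Within a lineage and library, UMIs were summed over cycling and non-cycling barcodes and scaled to CPM. List members needed 10 UMIs over both groups and the background genes 30. CPM carry exact Poisson intervals, ratios exact conditional binomial intervals and shares exact Clopper-Pearson intervals, all at 95%. A share with a count of 0 is given with its exact upper limit. PCR copies of a molecule are collapsed by UMIs, but cells of 1 library are not replicates, so no p-value was computed. Summing gives deep cells more weight.

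Named genes were the 10 highest and 8 lowest log2 ratios per class, taken from named genes that reached 100 CPM and 30 UMIs in the higher group. A UMI was also needed in at least 1 of 3 cycling cells (highest) or non-cycling cells of 5000 UMIs or more (lowest). The 4 rule genes, lineage genes, and mitochondrial, ribosomal, haemoglobin and immunoglobulin genes were left out. To these came up to 4 members per list with the highest mean CPM and members past 2-fold against their list; members outside this rule were named after their values were seen. The members, the gene lists and the comparisons were chosen with earlier results of these data known. The gene contrasts were also run on simulated Poisson counts with known ratios. Those counts had no variation between cells, so they cannot show how single deep or mislabelled cells move a ratio. Alternatives covered the limits of the rule, thinning to 1000 and 5000 UMIs, Scrublet removal at 0.8% of barcodes per 1000, the lineage rule, the CPM added, weighting and filters.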

Additional observations from a re-analysis of the deposited data

Results flagged for a closer look

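Outside the classed barcodes, 11 native barcodes with fewer than 1000 UMIs, of 4460, met the rule on the 4 genes, and so did 1 of the 101 native barcodes over the mitochondrial limit. These barcodes enter no comparison above. In the graft 0 of 217 shallow barcodes and 0 of 88 barcodes over the mitochondrial limit met it.

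The median of the T and NK function list had opposite signs in the endothelial classes of the vessels. Its median log2 ratio of cycling over non-cycling was -0.27 in the graft, over 6 measured genes with 31 UMIs in cycling cells and 0 past 2-fold, and 1.26 in the native artery, over 20 with 12 called higher. Of all genes, 3.08% were called higher in the graft class and 14.1% in the native one. The difference between the vessels was not tested. Beside it stand the counts of cells with more T and NK than endothelial UMIs outside the rule, 1 of 17 in the graft and 8 of 17 in the artery.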

How the results depend on the processing

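The share of cycling barcodes moved with depth and the rule. Thinned to 1000 UMIs it was 2.27% in the graft and 0.734% in the artery. The native share was 2.39% with a 5000 UMI minimum, 2.53% thinned to 5000 UMIs, 1.01% with 5 UMIs and 1000 CPM, 1.19% without TOP2A and 1.28% without CENPF. The native endothelial share was 0.22% under the stricter lineage rule and 0.197% with further markers, an alternative chosen after seeing the data. A 10% mitochondrial limit gave 6.26% in the graft and 1.77% in the artery, and Scrublet removal 6.24% and 1.79%.

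The CPM added sets the size of every ratio. Values follow in the order graft endothelial cells, graft macrophages, native endothelial-set cells, native macrophages and native T or NK cells. With 1 CPM, replication medians were 2.48, 2.23, 2.74, 2.39 and 2.05 and kinetochore medians 3.57, 4.07, 4.52, 4.43 and 3.59, with 660, 801, 2749, 969 and 727 genes at least 2-fold higher and 998, 1521, 4153, 1301 and 561 lower. With 50 CPM, replication medians were 0.68, 0.65, 0.69, 0.85 and 0.83 and kinetochore medians 0.95, 1.20, 1.28, 1.49 and 1.34, with 125, 188, 644, 228 and 187 genes higher and 65, 96, 514, 58 and 18 lower. With equal weight, 715 genes were lower in graft endothelial cells and 647 in native macrophages, and the native endothelial-set replication median was 1.15. Thinned to 1000 UMIs, that of graft macrophages was 1.29 and the kinetochore median of native endothelial-set cells 0.72. With 100 UMIs needed per gene, 338 genes were higher in native macrophages, and 193 higher and 102 lower in native T or NK cells, fewer genes being tested. Each of these list medians was above 0.

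8 list medians reversed, all after thinning to 1000 UMIs, which leaves few UMIs: anaphase in graft endothelial cells (-3.07), graft macrophages (-0.072) and native endothelial-set cells (-0.066), G1/S in graft macrophages (-0.084), nucleotide synthesis (-0.49) and the MYC list (-1.02) in native endothelial-set cells, and in native T or NK cells collagen (0.0049) and endothelial genes (0.10). For other moved values the cause was not tested. Of the remaining values under an alternative, 133 main and 1193 further ones stayed as reported and 158 further ones moved. Among named genes, alternatives chosen after seeing the data gave MGP in graft endothelial cells -0.93 with equal weight, under 2-fold, against -2.10. POSTN there had -3.76 with equal weight and -1.48 with the stricter lineage rule, against -2.83. No paired analysis was possible because each tissue has 1 library. Shallow native cells limit calls of 3 UMIs, and low genes carry wide counting intervals.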
